A study of Mus musculus with 12 samples.

Results

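Haematopoietic stem cell genes were a list of 33 genes that mark or maintain blood stem cells and their first progeny, taken by symbol from the array rows annotated to exactly 1 gene. Rows were found for 32 of them, among 19937 genes with a row of their own, and all 32 were tested among 29541 transcript clusters (the array's unit, roughly 1 per gene). Ly6a, which encodes the antigen Sca-1, was not analysed here. Each array held RNA of lineage-depleted bone marrow from the hind legs of 1 mouse, 6 of them E4bp4-/- and 6 E4bp4+/+. Lineage depletion pulled out mature cells on magnetic beads, by Ter119 (red cells), GR1 and CD11b (myeloid cells), B220 (B cells), CD2 and NK1.1 (lymphocytes), and both genotypes went through it. E4bp4, also called Nfil3, encodes a basic leucine zipper transcription factor, and the series asked which genes it regulates in marrow. Age and strain are not given in the sources used here.

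Stem cells sit at the top of blood formation and are rare even in depleted marrow. Stem cell factor acts on them through Kit and angiopoietin 1 through Tek, signals that help to hold them in the niche. Transcription factors such as Gata2, Mecom, Prdm16, Erg and Fli1 keep their identity, and surface proteins such as Slamf1 (CD150) and Procr are used to sort them, while Cd48 marks the progenitors below them. Many of these genes are also active in vascular endothelium, megakaryocytes or mast cells. In a mixed population, fewer cells of a type and less RNA per cell cannot be told apart.

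Promoter windows, from 250 bases before to 50 bases after a gene's start, were available from RefSeq (GRCm38.p6) for 28 of the 33 genes, 35 windows in all. Angpt1, Esam, Fli1, Ly6a and Tgm2 had no entry. Both strands were searched for the letters TTACGTAA and TTATGTAA, the D-box form that E4BP4 is known to bind. Only Myct1 and Ndn held a match, in 2 of 35 windows, against 1.06% of 32851 windows of all genes. The GATA letters AGATAA were in 3 windows, those of Tek, Myct1 and 1 of Erg, against 11.2% of all windows. The ETS letters CCGGAAG were in 2, Cd48 and Lyl1, against 8.86% of all windows. None of the 3 motifs overlapped another in the printed windows. The windows below are those with a D-box match, and Tek because its arrays separated the genotypes. They lie on the plus strand at chr4:94739039-94739338 (Tek), chr10:5593478-5593777 (Myct1) and chr7:62348027-62348326 (Ndn), with the matches in capitals.
Tek: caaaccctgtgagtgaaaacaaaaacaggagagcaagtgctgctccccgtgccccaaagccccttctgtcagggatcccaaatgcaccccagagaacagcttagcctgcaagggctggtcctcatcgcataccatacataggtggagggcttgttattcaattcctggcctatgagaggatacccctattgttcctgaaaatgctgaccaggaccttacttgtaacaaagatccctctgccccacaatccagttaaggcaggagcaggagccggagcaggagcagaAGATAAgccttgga
Myct1: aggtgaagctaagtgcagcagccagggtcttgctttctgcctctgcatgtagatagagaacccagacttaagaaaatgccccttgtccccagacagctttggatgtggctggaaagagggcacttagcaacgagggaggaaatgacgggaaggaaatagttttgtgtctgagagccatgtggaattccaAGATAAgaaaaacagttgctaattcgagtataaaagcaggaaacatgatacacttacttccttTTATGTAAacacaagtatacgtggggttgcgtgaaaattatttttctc
Ndn: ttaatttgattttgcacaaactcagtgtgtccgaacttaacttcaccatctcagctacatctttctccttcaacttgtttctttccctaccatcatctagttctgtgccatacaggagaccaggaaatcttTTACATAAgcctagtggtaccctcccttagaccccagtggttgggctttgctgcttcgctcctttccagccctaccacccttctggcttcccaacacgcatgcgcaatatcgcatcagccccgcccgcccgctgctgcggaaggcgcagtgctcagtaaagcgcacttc
In Tek the capitals mark the GATA letters, after the start. In Myct1 they mark the GATA letters 61 bases before the start and, just after it, the D-box. In Ndn they mark the D-box in its reverse complement, TTACATAA, beginning 119 bases before the start. A match describes letters and is not a bound site. Myct1 and Ndn differed between the genotypes by less than the spread between mice.

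Nfil3 itself served as the check of the labels. The labels do not state the extent of the deletion, so the Nfil3 row may hold probes outside it, and the level left in E4bp4-/- marrow does not measure the loss. Nfil3 lay between 6.34 and 6.92 log2 in E4bp4-/- marrow (median 6.38), against 6.94 to 7.67 in E4bp4+/+ marrow (median 7.11), with no overlap. The difference was -0.68 ± 0.13 log2 (SE), with adjusted p = 0.14 in limma and an exact permutation p of 0.00216. Kit and Cd34, markers of progenitors that were not used in the depletion, had means of 11.26 and 11.54 in E4bp4-/- and 11.07 and 11.42 in E4bp4+/+ marrow. Klrb1c, which encodes NK1.1, was below its array's 20th percentile on all 12 arrays, and that percentile ran from 4.93 to 4.99. Itgam, which encodes CD11b, remained measurable, at 6.87 to 8.93 in E4bp4-/- and 6.81 to 7.91 in E4bp4+/+ marrow. E4bp4-/- replicate 1 stood apart. It alone carried Y-linked signal, with Uty at 7.70 against at most 4.66 in E4bp4+/+ marrow. Xist was at 6.08 on that array, against 12.10 to 12.65 in E4bp4+/+ marrow. This is the pattern of a male mouse, so sex was not balanced between the genotypes. The neutrophil gene Ngp was at 12.01 on the same array, against at most 10.21 in E4bp4+/+ marrow. Results are therefore also given without E4bp4-/- replicate 1 for the stem cell genes together, for each comparison list and for some single genes.

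Stem cell genes leaned higher in E4bp4-/- marrow by small amounts, but none passed the adjusted threshold. Differences, E4bp4-/- minus E4bp4+/+, were above 0 for 25 of 32 genes, where 55.9% of all tested transcript clusters were above 0. Their median was 0.10 log2, with quartiles of 0.007 and 0.19, against a median of 0.02 and quartiles of -0.06 and 0.08 over all 29541. In limma, 0 of 32 passed a Benjamini-Hochberg adjusted p of 0.05, as did 0% of all transcript clusters. The smallest adjusted p among the stem cell genes was 0.184. At an unadjusted limma p under 0.05, 10 of 32 (31.2%) were higher in E4bp4-/- marrow, where 8.47% of all transcript clusters were. On the lower side it was 1 of 32 (3.12%), where 6.39% of all were. Tek, Esam, Mycn, Gata2, Kit, Prdm16, Mecom, Tie1, Slamf1 and Cd27 made up the 10, and Tgm2 was the 1. The list was chosen with earlier results of these data known. Its shares beside those of all transcript clusters are therefore description and not a test. After centring each array on its median, 5 were higher and 2 lower at an unadjusted limma p under 0.05. Of all transcript clusters, 3.53% were then higher at that p and 16.1% were under it in either direction. Differences were above 0 for 23 of 32 genes, where 40.4% of all transcript clusters were above 0. With that centring Kit, Tek, Esam, Mycn and Prdm16 were the 5 and Tgm2 and Mllt3 the 2. The balance of higher over lower genes thus rested in part on the scaling. The stem cell median was 0.088 log2 above that of all transcript clusters with and without this centring. Without E4bp4-/- replicate 1, 8 were higher and 1 lower at that p, with Tie1 and Cd27 no longer among them. Of all transcript clusters, 8.42% were then higher and 13.6% were under that p in either direction. Without that array the stem cell median was 0.069 log2, against 0.016 over all transcript clusters. Differences were then above 0 for 24 of 32 genes, where 56.6% of all were, and 5 genes changed sign.

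**Figure D1:**
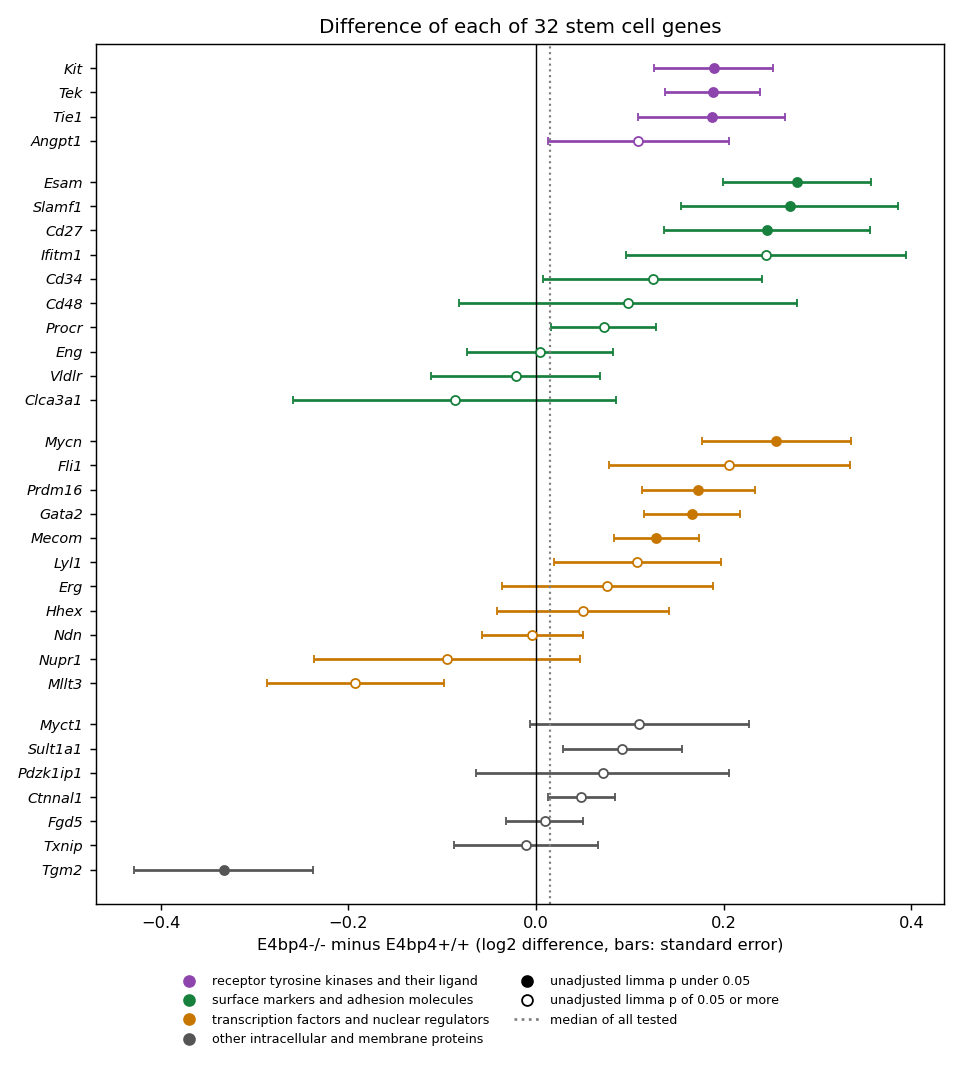
Difference of each of 32 stem cell genes in log2 units, E4bp4-/- minus E4bp4+/+ (horizontal axis), grouped by role, with standard errors from limma (n = 6 per genotype); filled points had an unadjusted p under 0.05. Of the 11 filled points 10 lie right of 0 and 1, Tgm2, lies left, and the dotted line marks the median of all tested transcript clusters.

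Receptor tyrosine kinases and their ligand came first. All 4 of these genes had a positive difference, 3 of them with an unadjusted p under 0.05, and 0 passed the adjusted threshold. Tek, the angiopoietin receptor Tie2, had levels of 6.89 to 7.09 log2 (median 6.93) in E4bp4-/- marrow, against 6.63 to 6.87 (median 6.78) in E4bp4+/+ marrow. Every E4bp4-/- array lay above every E4bp4+/+ array, and Tek was the only stem cell gene without overlap (1 of 32, 3.12%), where 0.619% of all transcript clusters were separated in this direction. The difference was 0.19 ± 0.050 log2 (SE), a 1.14-fold higher level, with adjusted p = 0.184 in limma. Exact permutation of the 12 Tek values between the genotypes gave a two-sided p = 0.00216, the smallest that 6 arrays against 6 can give. Such tests were run for each of the 32 genes, and their p-values are unadjusted.

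Kit, the stem cell factor receptor, was at 11.16 to 11.38 log2 (median 11.25) in E4bp4-/- marrow, against 10.93 to 11.25 (median 11.01) in E4bp4+/+ marrow. All 6 E4bp4-/- arrays lay above the E4bp4+/+ median, but E4bp4+/+ replicates 3 and 5 reached the E4bp4-/- range. The difference was 0.19 ± 0.064 log2 (adjusted p = 0.23 in limma; exact permutation p = 0.0238). Tie1, a relative of Tek with no known angiopoietin ligand of its own, was at 7.89 to 8.21 (median 8.01) in E4bp4-/- and 7.54 to 8.05 (median 7.86) in E4bp4+/+ marrow. The groups overlapped, and the difference was 0.19 ± 0.078 log2 (adjusted p = 0.301; exact permutation p = 0.0325). Angpt1, the ligand of Tek, averaged 8.18 ± 0.135 log2 in E4bp4-/- and 8.07 ± 0.21 in E4bp4+/+ marrow (SD, n = 6 each), and its difference of 0.11 ± 0.096 log2 was within the spread between mice, and was 0.04 ± 0.079 without E4bp4+/+ replicate 2.

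**Figure D2:**
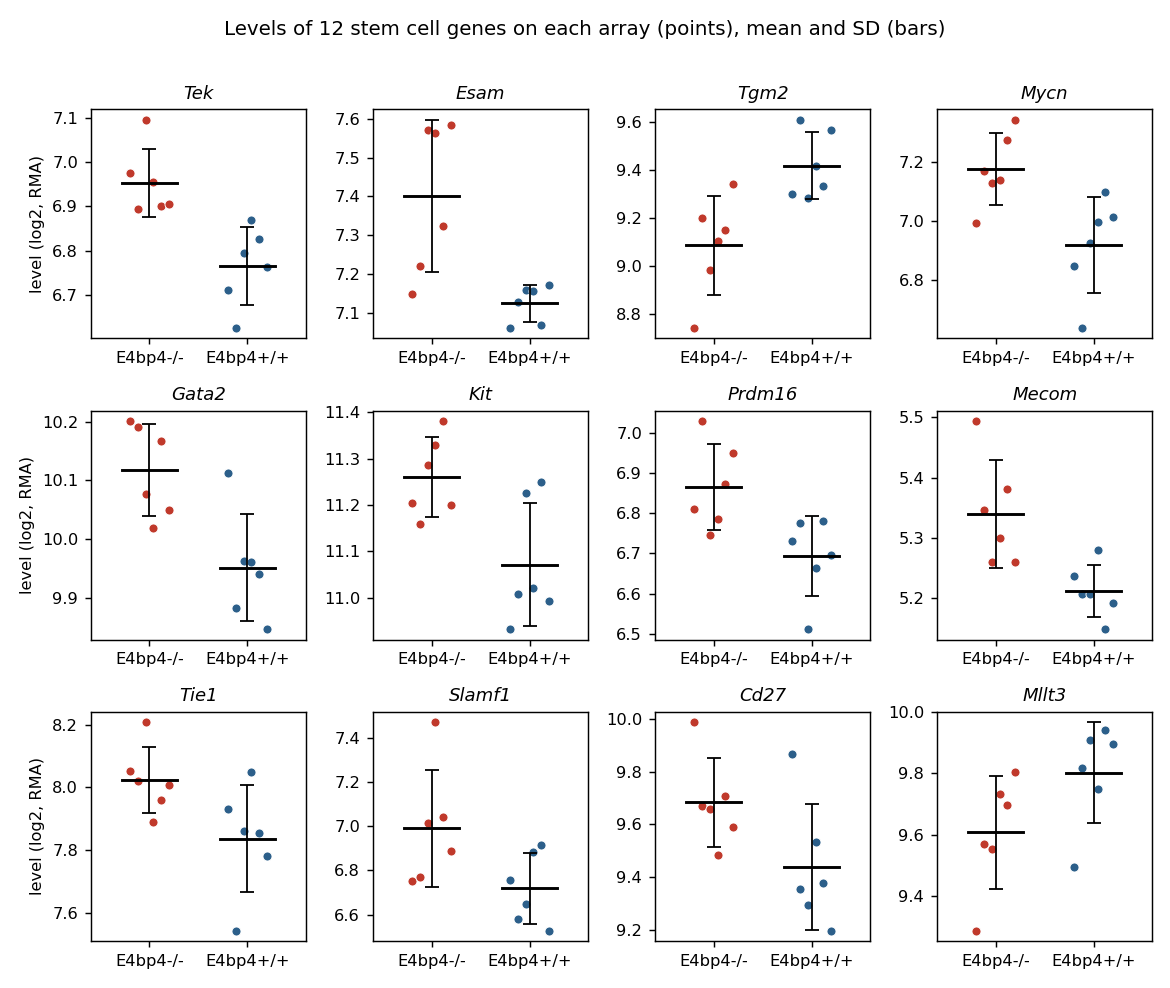
Log2 level of the 12 stem cell genes of lowest p (one panel each) on every array, E4bp4-/- left and E4bp4+/+ right; points are arrays in order of replicate number, bars the mean and SD of 6. Tek is the panel without overlap, and Tgm2 and Mllt3 are the panels in which E4bp4-/- marrow lies lower.

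Surface markers and adhesion molecules were 10 measured genes, 8 with a positive difference and 2 with a negative one. Esam, an adhesion molecule of endothelium, platelets and stem cells, was at 7.15 to 7.58 log2 (median 7.44) in E4bp4-/- marrow, against 7.06 to 7.17 (median 7.14) in E4bp4+/+ marrow. Its E4bp4-/- arrays fell apart into replicates 3, 4 and 6 at 7.56 or above and replicates 1, 2 and 5 at 7.32 or below, of which replicate 1 alone reached the E4bp4+/+ range. The difference was 0.28 ± 0.079 log2, a 1.21-fold higher level (adjusted p = 0.195 in limma; exact permutation p = 0.00866). Without E4bp4-/- replicate 1, which held its lowest E4bp4-/- level, Esam had an unadjusted limma p of 0.000545 and an adjusted p of 0.174. With 1 array left out at a time, its adjusted limma p ran from 0.171 to 0.329.

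Slamf1, or CD150, the receptor by which stem cells are sorted, was at 6.75 to 7.47 log2 (median 6.95) in E4bp4-/- and 6.53 to 6.91 (median 6.70) in E4bp4+/+ marrow. E4bp4-/- replicate 4, at 7.47, was far above the next array, and the difference of 0.27 ± 0.12 log2 had an exact permutation p of 0.0498. Without that array it was 0.17 ± 0.085, with an unadjusted limma p of 0.0648. Cd48, its neighbour on the chromosome with 3 genes between them, marks cells that have left the stem cell state. It averaged 8.89 ± 0.42 log2 in E4bp4-/- and 8.79 ± 0.24 in E4bp4+/+ marrow, a difference of 0.10 ± 0.18. Without E4bp4-/- replicate 1, which was at 9.64, that difference turned negative. Cd27, a receptor of the tumour necrosis factor family, was at 9.48 to 9.99 (median 9.66) in E4bp4-/- and 9.20 to 9.87 (median 9.36) in E4bp4+/+ marrow. Its difference was 0.25 ± 0.11 log2, with an exact permutation p of 0.0693, and the highest array of each genotype was replicate 1.

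Among the other surface genes, Ifitm1, an interferon-induced membrane protein, differed by 0.25 ± 0.15 log2 and Cd34, a sialomucin, by 0.12 ± 0.12. Ifitm1 had a second row, which differed by 0.17 ± 0.15. Without E4bp4-/- replicate 1, Ifitm1 differed by 0.11 ± 0.099 and Cd34 by 0.04 ± 0.099. Procr, the protein C receptor, was at 6.06 to 6.34 in E4bp4-/- and 5.98 to 6.18 in E4bp4+/+ marrow, a difference of 0.07 ± 0.056 that was 0.04 ± 0.049 without that array. Eng, a co-receptor for TGF-beta, was at 11.15 to 11.60 in E4bp4-/- and 11.29 to 11.56 in E4bp4+/+ marrow, and differed by 0.004 ± 0.077. Vldlr, a lipoprotein receptor, differed by -0.02 ± 0.090, and Clca3a1, named for chloride channel accessory proteins, by -0.09 ± 0.17, or 0.06 ± 0.12 without E4bp4-/- replicate 1. None of these 6 genes had an unadjusted limma p under 0.05.

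Transcription factors and nuclear regulators were 11 genes, 8 with a positive and 3 with a negative difference, 4 of them with an unadjusted p under 0.05. Mycn, a Myc family factor, was at 6.99 to 7.34 log2 (median 7.16) in E4bp4-/- marrow, against 6.64 to 7.10 (median 6.96) in E4bp4+/+ marrow. Of the 6 E4bp4-/- arrays, 5 lay above all E4bp4+/+ arrays, and replicate 1 was the one that did not. The difference was 0.26 ± 0.079 log2, a 1.19-fold higher level (adjusted p = 0.214 in limma; exact permutation p = 0.00866). Gata2, a zinc finger factor of stem and mast cells, was at 10.02 to 10.20 (median 10.12) in E4bp4-/- and 9.85 to 10.11 (median 9.95) in E4bp4+/+ marrow. Only E4bp4+/+ replicate 1, at 10.11, reached into the E4bp4-/- range, and the difference was 0.17 ± 0.052 log2 (adjusted p = 0.214; exact permutation p = 0.013).

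Prdm16 and Mecom are related PR-domain zinc finger proteins needed for stem cell maintenance. Prdm16 was at 6.75 to 7.03 log2 (median 6.84) in E4bp4-/- and 6.51 to 6.78 (median 6.71) in E4bp4+/+ marrow. The genotypes overlapped only through E4bp4-/- replicate 3, and the difference was 0.17 ± 0.060 log2 (exact permutation p = 0.00866). Mecom was at 5.26 to 5.49 (median 5.32) in E4bp4-/- and 5.15 to 5.28 (median 5.21) in E4bp4+/+ marrow, a difference of 0.13 ± 0.045 log2 (exact permutation p = 0.00649). Mecom differed by 0.10 ± 0.038 without E4bp4-/- replicate 1. Its levels were close to the arrays' 20th percentile, where a difference can be understated. Mecom's other row differed by 0.07 ± 0.053 with an unadjusted p of 0.215, in the same direction and within the errors of the first.

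The ETS factors Fli1 and Erg, the basic helix-loop-helix factor Lyl1 and the homeobox factor Hhex differed by 0.21 ± 0.13, 0.08 ± 0.11, 0.11 ± 0.089 and 0.05 ± 0.092 log2. E4bp4-/- replicate 1 was the highest of the 12 arrays for each of these 4 genes. Without it, Fli1 differed by 0.10 ± 0.097, Erg by -0.02 ± 0.080, Lyl1 by 0.04 ± 0.072 and Hhex by -0.008 ± 0.082. Mllt3, a reader of acylated histones that supports human stem cells in culture, was at 9.29 to 9.81 log2 (median 9.63) in E4bp4-/- and 9.50 to 9.94 (median 9.86) in E4bp4+/+ marrow. All E4bp4-/- arrays lay below the E4bp4+/+ median, and the difference was -0.19 ± 0.094 log2 (exact permutation p = 0.0823). It was -0.13 ± 0.081 without E4bp4-/- replicate 1, with an unadjusted limma p of 0.138. Nupr1, a stress-induced nuclear protein, differed by -0.10 ± 0.14, or 0.02 ± 0.11 without E4bp4+/+ replicate 5. Ndn, the growth suppressor necdin, whose promoter window carried a D-box, was at 5.78 to 6.11 in E4bp4-/- and 5.86 to 6.04 in E4bp4+/+ marrow, and differed by -0.004 ± 0.054.

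The remaining 7 genes encode other intracellular and membrane proteins, 5 with a positive and 2 with a negative difference. Tgm2, a transglutaminase that cross-links proteins, was the stem cell gene furthest below its wild type level. It was at 8.74 to 9.34 log2 (median 9.13) in E4bp4-/- marrow, against 9.28 to 9.61 (median 9.37) in E4bp4+/+ marrow. Only E4bp4-/- replicate 6, at 9.34, reached the E4bp4+/+ range. The difference was -0.33 ± 0.095 log2, a 1.26-fold lower level (adjusted p = 0.197 in limma; exact permutation p = 0.00866). It was -0.26 ± 0.0785 without E4bp4-/- replicate 1, with an unadjusted limma p of 0.00598. Tgm2 is also abundant in macrophages and endothelium.

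Myct1, a membrane protein and the other gene with a D-box match, averaged 7.21 ± 0.13 log2 in E4bp4-/- and 7.10 ± 0.28 in E4bp4+/+ marrow, a difference of 0.11 ± 0.12 that was 0.01 ± 0.081 without E4bp4+/+ replicate 2. Fgd5, an exchange factor for Cdc42 used to label stem cells in mice, was at 6.62 to 6.80 in E4bp4-/- and 6.62 to 6.78 in E4bp4+/+ marrow, a difference of 0.009 ± 0.041. Txnip, an inhibitor of thioredoxin, differed by -0.01 ± 0.076. Sult1a1, a sulfotransferase, differed by 0.09 ± 0.064, and Nupr1 above lies beside it with 1 gene between them. Pdzk1ip1, a small membrane protein, differed by 0.07 ± 0.13, from -0.01 without E4bp4-/- replicate 6 to 0.19 without E4bp4-/- replicate 1. Ctnnal1, or alpha-catulin, differed by 0.05 ± 0.036. With these standard errors, Fgd5 and Ctnnal1 were the most precisely measured of the 32 genes. No stem cell gene lies on chromosome 13, which carries Nfil3 (0 of 32).

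Leaving out 1 array at a time gave 12 fits, each sharing its arrays with the fit of all 12 arrays. They followed the order by p of that fit and are not a separate test. Tek, Esam, Mycn, Gata2, Kit, Prdm16, Mecom and Tgm2 kept an unadjusted limma p under 0.05 in all 12 such fits. Tie1 kept it in 7, Slamf1 in 6 and Cd27 in 4. Gata2 and Mecom, which kept it in all 12, did not keep it after centring each array on its median. No stem cell gene passed the adjusted threshold in any of the 12, where 0 to 4 transcript clusters passed. The smallest adjusted p among the stem cell genes was 0.16, for Tek without E4bp4+/+ replicate 2.

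Stem cell genes also varied among mice of 1 genotype, and the arrays numbered 1 stood out. The median standard deviation within genotype was 0.17 log2 for the stem cell genes and 0.11 for all tested transcript clusters. The mean level over the 32 genes was 8.37 to 8.44 log2 on E4bp4-/- arrays and 8.23 to 8.38 on E4bp4+/+ arrays, and these ranges overlapped through E4bp4+/+ replicate 1. The highest of the 12 values was in E4bp4-/- marrow for 26 genes and in E4bp4+/+ marrow for 6. Of those 26, 12 were in replicate 1. The same count was not made over all transcript clusters, so the split is not shown to be particular to stem cell genes. Array medians were 6.543 to 6.616 log2 on E4bp4-/- and 6.502 to 6.565 on E4bp4+/+ arrays. Replicate 1 was the highest array of its genotype in both genotypes for 11 genes, namely Angpt1, Cd34, Cd48, Cd27, Ifitm1, Gata2, Erg, Fli1, Lyl1, Hhex and Myct1. It was the lowest in both for Esam, Clca3a1, Mllt3 and Pdzk1ip1. Replicate number is not stated to mark a shared batch. Leaving out both arrays numbered 1 gave 26 positive differences, where 55.7% of all transcript clusters were positive. At an unadjusted limma p under 0.05 there were 11 higher and 2 lower, Fli1 and Mllt3 now among them. Of all transcript clusters, 7.28% were higher at that p and 12.1% were under it in either direction.

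**Figure D3:**
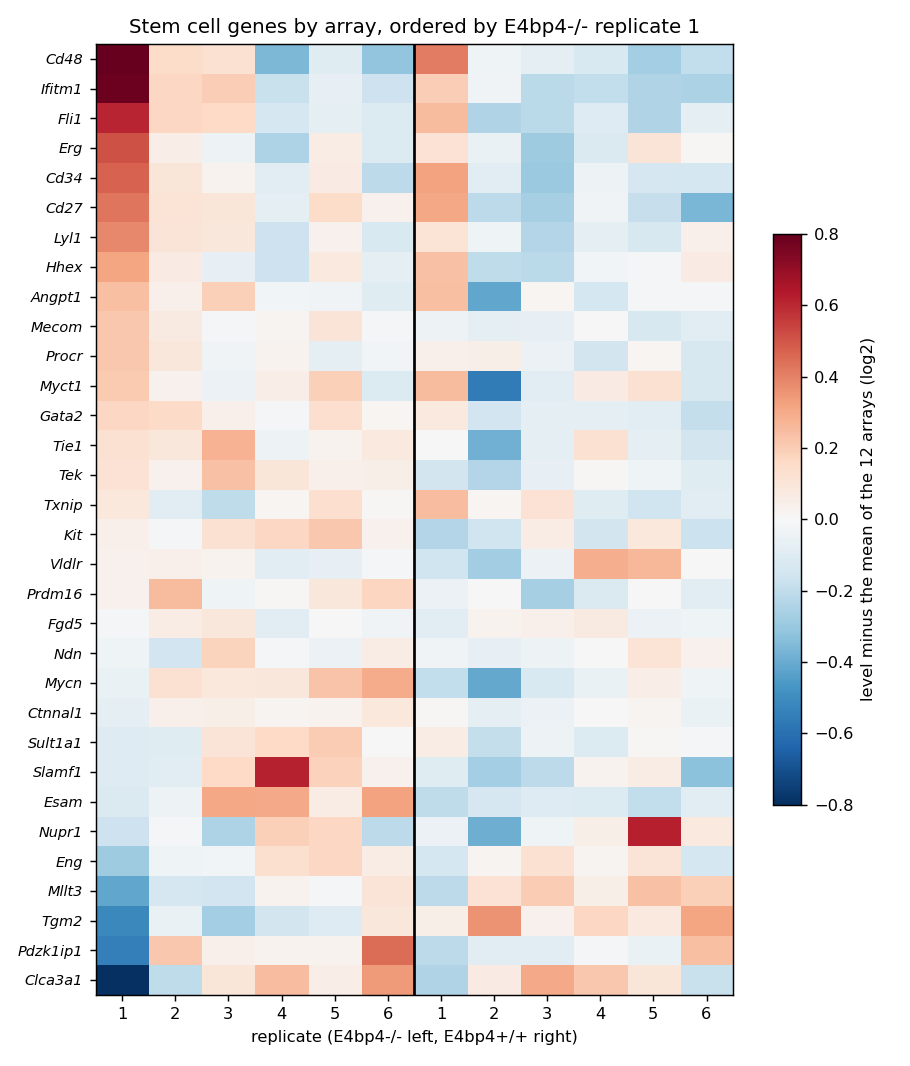
Level of each of 32 stem cell genes (rows) on each array (columns, E4bp4-/- left of the line, E4bp4+/+ right) minus that gene's mean over the 12 arrays, in log2 units, red above and blue below. Rows are ordered by E4bp4-/- replicate 1, and the first column of each genotype is red for most genes at the top, such as Cd48 and Cd34, and blue for Mllt3, Pdzk1ip1 and Clca3a1 at the bottom.

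Genes of the same biology outside the list were compared next, with the lists of cells that share these genes. Of all tested transcript clusters, 55.9% had a positive difference. At an unadjusted limma p under 0.05, 8.47% of all were higher and 6.39% lower. The list counts beside these shares are description and not a test. Of 40 other stem cell regulators 37 were measured, 28 with a positive and 9 with a negative difference, with a median of 0.07 log2. At an unadjusted limma p under 0.05 there were 7 higher and 0 lower, and 0 passed the adjusted threshold. Cdkn1c, the cell cycle inhibitor p57 that keeps stem cells quiescent, was at 6.93 ± 0.050 log2 in E4bp4-/- and 6.71 ± 0.076 in E4bp4+/+ marrow (SD, n = 6 each), a difference of 0.21 ± 0.043 (SE; adjusted p = 0.148 in limma). Zfp36l2, an RNA-binding protein of early progenitors, differed by 0.19 ± 0.058, Dnmt3a, a DNA methyltransferase, by 0.17 ± 0.061 and Robo4, a guidance receptor that is also in the endothelial list, by 0.16 ± 0.063. Without E4bp4-/- replicate 1 the median of this list was 0.02.

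Endothelial genes that are not stem cell genes were mostly higher in E4bp4-/- marrow, by small amounts. The median of this list was 0.06 log2 without E4bp4-/- replicate 1, against 0.07 for the stem cell genes without that array. Of 19 measured, 14 were positive and 5 negative, with a median of 0.07 log2, 3 higher and 2 lower at an unadjusted p under 0.05 and 0 past the adjusted threshold. The 4 of lowest p differed in direction, with Robo4, given above, and Flt4, a receptor for vascular growth factors (0.13 ± 0.051), higher, and Stab2, a scavenger receptor of sinusoids (-0.24 ± 0.061), and Cdh5, or VE-cadherin (-0.22 ± 0.093), lower. Mean levels of this list were 6.81 to 6.95 log2 on E4bp4-/- arrays and 6.78 to 6.88 on E4bp4+/+ arrays. The part of endothelial cells in the Tek, Esam and Tie1 differences was not tested.

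Megakaryocytes are known to share Esam, Gata2 and Fli1 with stem cells, and megakaryocyte and platelet genes had positive differences for all 13 measured of 18. Their median was 0.41 log2, with 7 higher at an unadjusted p under 0.05 and 0 past the adjusted threshold. The median was 0.49 without E4bp4-/- replicate 1. Itga2b, the platelet integrin CD41, was at 9.98 ± 0.14 log2 in E4bp4-/- and 9.56 ± 0.26 in E4bp4+/+ marrow, a difference of 0.41 ± 0.11 (SE). Itgb3, its partner chain, differed by 0.62 ± 0.20, Treml1, a platelet granule receptor, by 0.55 ± 0.17 and Rab27b, a granule transport protein, by 0.33 ± 0.13. List means ran from 9.02 to 10.13 log2 on E4bp4-/- arrays, with the lowest in replicate 1, and from 8.97 to 9.65 on E4bp4+/+ arrays. Of the shared genes, in E4bp4-/- replicate 1 Esam had its lowest E4bp4-/- level (7.15), and Gata2 (10.20) and Fli1 (10.46) their highest. Among all stem cell genes, 10 had their lowest E4bp4-/- level on that array, with Slamf1 (6.75) and Mycn (6.99) among them. Another 13, Gata2 and Fli1 included, had their highest there. These are levels on 1 array and do not show which cells they came from. The part of megakaryocytes in the stem cell gene differences was not tested.

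Basophil and mast cell genes, which share Kit and Gata2 with stem cells, were positive for 14 of 15, with 2 higher at an unadjusted p under 0.05. Their median was 0.10 log2, and 0.09 without E4bp4-/- replicate 1. List means were 7.003 to 7.977 on E4bp4-/- and 6.92 to 7.77 on E4bp4+/+ arrays. Slc18a2, a monoamine transporter, differed by 0.32 ± 0.098 log2 and the mast cell protease gene Tpsb2 by 0.08 ± 0.034. Cma1 and Mcpt4, further mast cell proteases, differed by 0.09 ± 0.043 and 0.09 ± 0.061. Neutrophil genes had a median of 0.29 log2, with 14 of 15 positive and 0 with an unadjusted limma p under 0.05. Their list mean was 10.15 in E4bp4-/- replicate 1, 7.95 to 8.89 on the other E4bp4-/- arrays and 7.97 to 8.89 on E4bp4+/+ arrays, and without that array their median was 0.07. Mmp8, Retnlg, Cd177 and Itgb2l of that list differed by 0.42 ± 0.22, 0.53 ± 0.39, 0.29 ± 0.15 and 0.15 ± 0.078.

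Myeloid and dendritic progenitor genes were positive for 10 of 10, with a median of 0.17 log2 that was -0.01 without E4bp4-/- replicate 1. Flt3, the receptor of multipotent and lymphoid progenitors that stem cells lack, differed by 0.36 ± 0.11, against 0.26 ± 0.19 for Irf8, 0.23 ± 0.22 for Csf1r and 0.19 ± 0.16 for Csf2ra. B cell precursor genes were positive for 10 of 12, with a median of 0.17 log2 that was 0.10 without E4bp4-/- replicate 1. At an unadjusted p under 0.05 there were 4 higher, Pou2af1 (0.68 ± 0.13), Cd79a (0.33 ± 0.11), Vpreb1 (0.26 ± 0.098) and Pax5 (0.19 ± 0.075).

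Genes of dividing and erythroid cells ran the other way. Their list means lay above 8.10 log2, the median level of the stem cell genes, on every array. Of all tested transcript clusters at or above that level, 40.3% had a positive difference, with a median of -0.02. Of 23 cell cycle genes, 22 had a negative difference, 13 with an unadjusted limma p under 0.05, with a median of -0.11 log2. Of all tested transcript clusters, 6.39% were lower at that p. List means of the cell cycle genes were 11.39 to 11.51 on E4bp4-/- and 11.51 to 11.63 on E4bp4+/+ arrays. Their median was -0.10 without E4bp4-/- replicate 1. Mcm4, a subunit of the replication helicase, differed by -0.17 ± 0.036, and Nusap1, Birc5 and Tpx2, which act in mitosis, by -0.21 ± 0.056, -0.19 ± 0.056 and -0.15 ± 0.042. Erythroid genes were negative for 12 of 13, with a median of -0.10 log2 that was -0.04 without E4bp4-/- replicate 1. Epb42, a red cell membrane protein, differed by -0.29 ± 0.10, Fech, an enzyme of haem synthesis, by -0.22 ± 0.074, Rhd, a blood group protein, by -0.19 ± 0.091 and Car2, carbonic anhydrase 2, by -0.10 ± 0.048. None of the genes in these lists passed the adjusted threshold in limma. The part of any of these cell types in the stem cell gene differences was not tested.

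**Figure D4:**
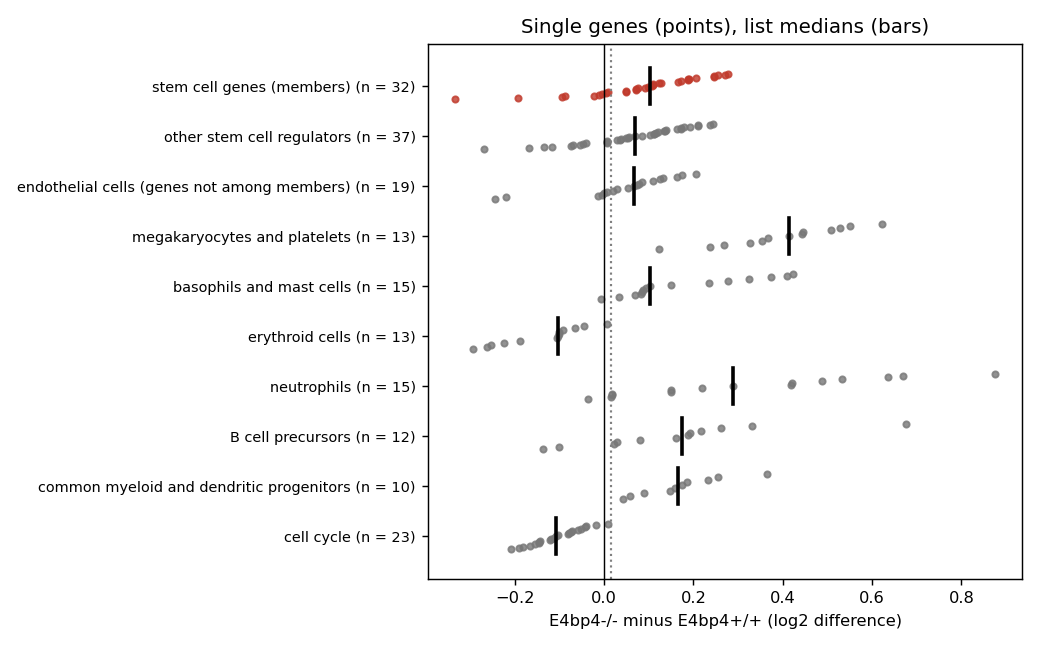
Difference of each tested gene in log2 units, E4bp4-/- minus E4bp4+/+ (horizontal axis), for the 32 stem cell genes and 9 comparison lists (rows), with a bar at each list's median; the dotted line is the median of all tested transcript clusters. The stem cell median is 0.10, between those of cell cycle genes (-0.11) and of megakaryocyte and platelet genes (0.41).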

How the data were processed

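Transcript levels were measured on GeneChip Mouse Gene 1.0 ST arrays, 1 per mouse, for 6 E4bp4-/- and 6 E4bp4+/+ mice, with groups taken from the titles in the labels. The deposited values are log2 levels for 34760 transcript clusters that, per the design text given with the labels, the authors computed by RMA16 in GeneSpring GX version 11. The log2 scale was inferred from the values, 3.18 to 14.33. RMA aligns the arrays, so a shift shared by most genes would be hidden, and scanner files were not used here. Array medians ran from 6.50 to 6.62, and the number of arrays limits the precision.

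A transcript cluster was tested if any of the 12 arrays held it at or above that array's own 20th percentile (29541). Symbols came from the platform annotation, which named 1 gene for 21640 rows, several for 1321 and none for 11799. Entrez identifiers of 21553 matched RefSeq (GRCm38.p6), which changed 0 symbols. For each gene the row of highest mean was used. The genotypes were compared in 1 model over all transcript clusters, without covariates, using lmFit and eBayes of limma 3.58.1 (R 4.3.3). Adjusted p-values are Benjamini-Hochberg values over all transcript clusters, called at 0.05. Exact permutation tests of single genes were two-sided.

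The members and lists were chosen with earlier results of these data known. The rule for named genes was all members, with lowest, median and highest values for the 12 of lowest limma p, Nfil3, and at most 4 genes from each comparison list, by limma p. Alternatives were another filter or none, quantile or median scaling, a variance trend, array weights, the mean of a gene's rows, a replicate block and each array left out. Leaving out both arrays numbered 1 was chosen after seeing the data. The limma step was tested on simulated data.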

Additional observations from a re-analysis of the deposited data

Results flagged for a closer look

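A single array lay far from the other 5 of its genotype, by Dixon's gap-to-range ratio, in 13 of the 138 sets of 6 values examined. Chance alone would flag about 1 in 20, or 6.9. Among stem cell genes these were Cd48 and Fli1 in E4bp4+/+ replicate 1, at 9.25 and 10.10 log2, against at most 8.81 and 9.78 on the other E4bp4+/+ arrays. Nfil3 was also high on that array, at 7.67 against at most 7.18, as were Flt4 at 6.00 and Cd79a at 5.38.

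In E4bp4-/- replicate 1, Flt3 was at 10.01, Cd177 at 7.80, Mmp8 at 6.59 and Itgb2l at 6.88, each above the other E4bp4-/- arrays, and Car2 was below them at 12.95. In E4bp4+/+ marrow, Itga2b was low in replicate 2 at 9.06, Vpreb1 was high there at 6.64, and Robo4 was low in replicate 3 at 6.04.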

How the results depend on the processing

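Across the alternatives run, 0 stem cell genes passed the adjusted threshold, and Nfil3 and the 12 stem cell genes of lowest p kept their direction in each. The number of stem cell genes past an unadjusted limma p of 0.05 was 11 with the settings of the report, where 14.9% of all transcript clusters were. It was 7 with median-centred arrays, where 16.1% of all transcript clusters were. With that centring the shift of all transcript clusters was -0.03 log2 and that of the stem cell genes 0.06. With single arrays left out there were 8 to 13 stem cell genes past that p, where 11.7% to 17.2% of all transcript clusters were. Positive differences then numbered 23 to 28, where 54% to 56.6% of all were positive, and medians ran from 0.07 to 0.14. Over all transcript clusters, 0 passed the adjusted threshold in the report's fit, 5 with array weights and 0 to 4 with 1 array left out: 4 without E4bp4-/- replicate 1, 1 without E4bp4-/- replicate 2 and 1 without E4bp4+/+ replicate 2; the cause was not tested. Both genotypes carry replicate numbers 1 to 6, which no label ties to a shared batch. Deviations of same-numbered arrays correlated at -0.033 to 0.462, above 0.1 for numbers 1, 5 and 6 only, each of which also matched its own number best. Pairing was therefore not assumed, and these correlations are a hint from the data. With the replicate block, 13 stem cell genes had an unadjusted limma p under 0.05 (11 higher, 2 lower). Of all transcript clusters, 17.4% had such a p with the block, and 9.73% were higher at it. Fli1, Ifitm1 and Mllt3 were gained (unadjusted limma values of 0.0284, 0.015 and 0.00618), and Tie1 was lost (0.0501). The median stayed at 0.10, and 0 transcript clusters passed the adjusted threshold. The 50th percentile filter left 28 stem cell genes, 10 of them with an unadjusted limma p under 0.05, where 16.3% of all transcript clusters left had one. Signs turned in at least 1 alternative for Cd48, Clca3a1, Eng, Erg, Fgd5, Hhex, Ndn, Nupr1, Pdzk1ip1, Txnip and Vldlr, all with an unadjusted p above 0.5. Exact permutation tests of single genes gave p under 0.05 for 10 of the 12 genes of lowest p, with Cd27 and Mllt3 above it. Those 12 genes were picked by limma p from the same values, so the permutation tests are not a separate check of them. Low signal limits Mecom most, whose values were nearest the 20th percentile among the 12.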
